A study of Homo sapiens with 12 samples.

Results

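The genes described here are 10 members of the Krüppel-like factor (KLF) family of transcription factors: KLF2, KLF3, KLF4, KLF6, KLF7, KLF9, KLF10, KLF11, KLF13 and KLF16. They were taken by name from a table of 61466 genes, and every named member had 1 row. The table came from RNA sequencing of SU-DHL-8 and Farage, 2 established human lines of diffuse large B cell lymphoma, a cancer of mature B cells. Cells of each line were either controls or received morusinol, a prenylated flavonoid of mulberry root bark, and the samples are labelled 12 h. The 4 groups, control and treated cells of each line, had 3 libraries each. The labels give the genotype of both control groups as WT and the tissue of all groups as lymph node, and they name no modified allele. The sources used here do not give the dose. They do not say whether replicates came from separate cultures, so the p-values measure only the spread between these libraries.

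KLF proteins bind GC-rich and CACCC sequences through zinc fingers at the C terminus, and their N-terminal parts recruit different cofactors. KLF2, KLF4, KLF6 and KLF7 act largely as activators that use acetyltransferases, KLF3 is a repressor that recruits CtBP, and KLF9, KLF10, KLF11, KLF13 and KLF16 recruit the SIN3 co-repressor and its histone deacetylases. In lymphocytes KLF2 is known for maintaining quiescence and for controlling homing receptors, and KLF4 and KLF9 restrain the proliferation of resting B cells.

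Values are in FPKM, a fragment count divided by the length of the gene and the depth of the library, so levels of different genes are compared per length. Means are given ± SD over the 3 libraries of a group. Fold changes are log2 differences of FPKM + 1 ± SE from limma, with p-values adjusted by the Benjamini-Hochberg method over the 17574 genes that had at least 1 FPKM in at least 3 libraries. A gene was called when its adjusted p was under 0.05. Adding 1 to each value shrinks the fold change of low genes, so the ratio of the mean FPKM values is also given for the main changes of low genes that were not at 0. Of the 10 KLF genes, 8 passed the filter. KLF4 and KLF11 did not pass, KLF3 passed through the Farage morusinol libraries alone, KLF7 and KLF9 through Farage libraries, and KLF2 through morusinol libraries. Counts over the 8 tested genes are therefore descriptions.

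The promoters of 4 KLF genes are shown because these genes gave the largest log2 differences of FPKM + 1 with treatment in at least 1 line: KLF6 and KLF2 among the rises in SU-DHL-8, KLF6 and KLF9 among the rises in Farage, and KLF16 among the falls in SU-DHL-8. By ratio of means the largest rise of a tested gene in Farage was that of KLF3 (6.29), for which no promoter was available. The sequences are from RefSeq on GRCh38.p14. They run 5′ to 3′ on the strand of the gene and end at or before the start of its transcript. KLF2 lies at chr19:16324576-16324816 on the plus strand. KLF6 lies at chr10:3785282-3785459, KLF9 at chr9:70414658-70414907 and KLF16 at chr19:1863580-1863829, all on the minus strand. Capitals mark GC boxes (GGGCGG or its reverse complement), the class of site that KLF and SP proteins bind, and in KLF2 also a MEF2 site.
KLF6: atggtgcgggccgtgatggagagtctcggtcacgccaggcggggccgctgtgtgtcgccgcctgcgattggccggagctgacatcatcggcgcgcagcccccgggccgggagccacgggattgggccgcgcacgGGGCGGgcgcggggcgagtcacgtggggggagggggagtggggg
KLF2: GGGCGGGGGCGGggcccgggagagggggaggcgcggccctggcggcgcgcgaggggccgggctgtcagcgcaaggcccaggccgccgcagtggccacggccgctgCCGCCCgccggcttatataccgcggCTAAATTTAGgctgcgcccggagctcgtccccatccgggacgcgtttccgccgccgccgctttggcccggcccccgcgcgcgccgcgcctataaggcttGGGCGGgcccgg
KLF9: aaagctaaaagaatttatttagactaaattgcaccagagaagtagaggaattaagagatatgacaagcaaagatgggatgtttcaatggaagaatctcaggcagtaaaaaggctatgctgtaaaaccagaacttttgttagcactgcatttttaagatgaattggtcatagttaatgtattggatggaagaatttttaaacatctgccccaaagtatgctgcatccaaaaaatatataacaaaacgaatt
KLF16: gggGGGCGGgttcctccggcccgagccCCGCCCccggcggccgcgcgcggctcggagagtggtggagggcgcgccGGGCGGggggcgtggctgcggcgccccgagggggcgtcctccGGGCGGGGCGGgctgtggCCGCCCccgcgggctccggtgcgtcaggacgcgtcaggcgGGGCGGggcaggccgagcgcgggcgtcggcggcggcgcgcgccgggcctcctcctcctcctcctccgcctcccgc
Motifs were searched on both strands of the 250 bases before each RefSeq start, and GC boxes were allowed to overlap each other. The KLF16 window held 7 GC boxes and the KLF2 window 4. The KLF6 window held 2, of which 1 lies in the 72 bases that are not printed because GENCODE places them inside the gene. The KLF9 window held none and was 32.4% G or C, against 86.4% for KLF16, 80.0% for KLF2, 72.4% for KLF6 and a median of 58% over all windows. At least 1 GC box was found in 42.5% of the 34943 RefSeq promoter windows of this length. The MEF2 site of KLF2, at -120 to -111 from the start, is of a kind found in 2.36% of windows. None of the 4 windows held a CACCC box (CCACCC, 31.3% of windows), a cyclic AMP response element (TGACGTNA, 2.66%), a C/EBP-ATF site (TGATGNAAN, 3.14%) or a CArG box (1.16%). These matches describe letters only.

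In SU-DHL-8, morusinol was followed by rises of KLF6 and KLF2 and by falls of KLF16 and KLF13. In Farage, KLF6, KLF9 and KLF3 rose and no tested KLF gene fell. KLF6 was thus called in both lines, while each of the other 5 responses was called in 1 line. In SU-DHL-8, 4 of the 8 tested genes were called, beside 46.8% of all genes tested, and in Farage 3 of 8, beside 43.1%. These shares are close to the background. Library values of treated and control groups were apart for 4 KLF genes in SU-DHL-8 and for 5 in Farage, beside 54.1% and 51.0% of all genes tested. For 6 of the 8 tested genes the response itself differed between the lines, beside 34.9% of all genes tested. It was higher in Farage for 5 genes (17.3% of all genes) and lower for 1, KLF2 (17.6%). Higher means a larger rise or a smaller fall. Because KLF3 passed the filter through treated Farage libraries alone and KLF2 through morusinol libraries, these counts are descriptions.

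**Figure D1:**
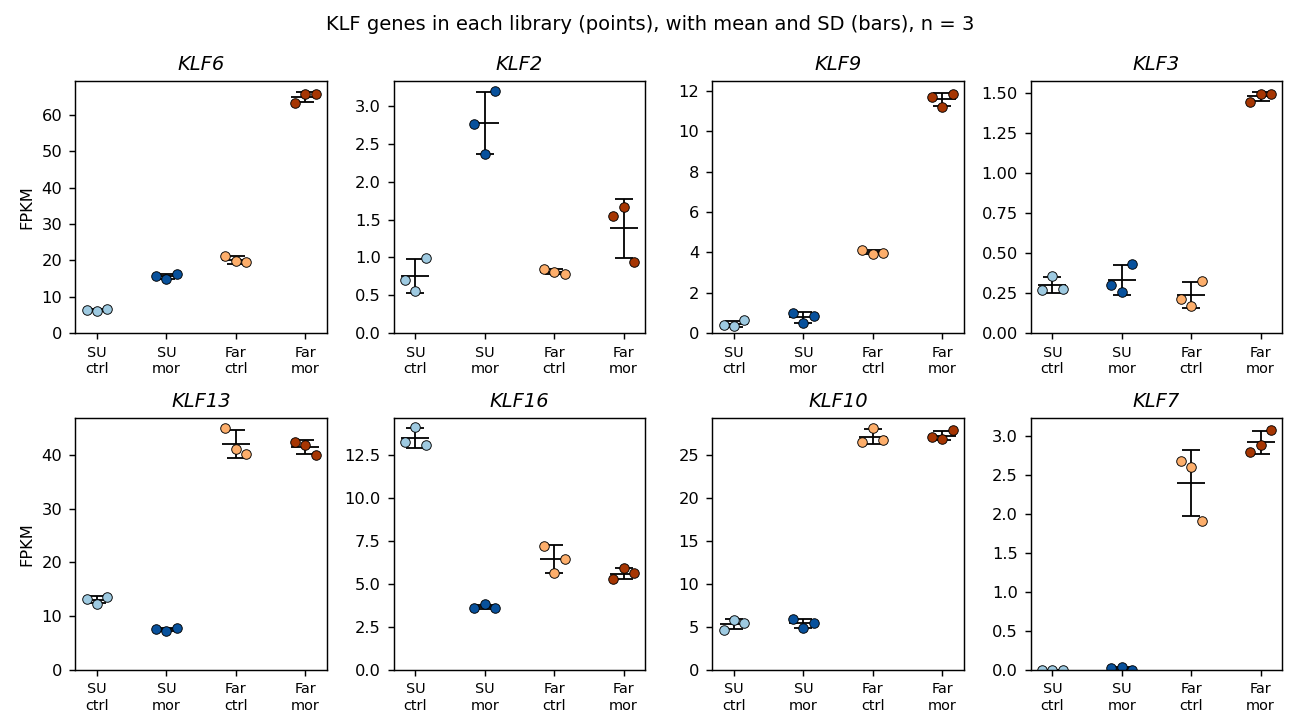
FPKM of the 8 tested KLF genes on linear axes that start at 0. Each point is a library, and bars give the mean and SD of the 3 libraries of a group (SU, SU-DHL-8; Far, Farage; ctrl, control; mor, morusinol). KLF6 is higher in the morusinol libraries of both lines, KLF16 and KLF13 are lower with morusinol in SU-DHL-8, where the groups do not overlap, while their Farage groups overlap, and KLF10 differs by line and not visibly by treatment.

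The activators come first. KLF6 (ENSG00000067082, chr10:3775996-3785281, minus strand, GRCh38) is a widely expressed activator that is induced early after many stimuli. In SU-DHL-8 it was at 6.42, 5.96 and 6.70 FPKM in controls and at 15.6, 14.99 and 16.3 FPKM after morusinol. In Farage it was at 21.3, 19.7 and 19.4 FPKM in controls and at 63.2, 65.7 and 65.7 FPKM after morusinol. All treated libraries of a line lay above all its controls, and even the treated SU-DHL-8 libraries lay below the Farage controls. The rise was 1.18 ± 0.0503 in SU-DHL-8 (adjusted p = 2.6e-08, ratio of means 2.46) and 1.64 ± 0.0503 in Farage (adjusted p = 5.1e-09, ratio of means 3.22). The Farage response was larger by 0.46 ± 0.0712 (adjusted p = 0.00064). Among the 17574 fold changes ordered from the highest, KLF6 held place 559 in SU-DHL-8 and place 105 in Farage.

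KLF2 (ENSG00000127528, chr19:16324817-16327874, plus strand) is the quiescence factor of lymphocytes and a known target of the kinase ERK5 through MEF2 factors. It was low in the controls of both lines, at 0.698, 0.562 and 0.995 FPKM in SU-DHL-8 and at 0.842, 0.811 and 0.781 FPKM in Farage. After morusinol it was at 2.77, 2.37 and 3.20 FPKM in SU-DHL-8 and at 1.54, 1.67 and 0.943 FPKM in Farage. The treated SU-DHL-8 libraries were the highest of all, and in Farage the third treated library lay close to the controls while the other two stood above them. The rise in SU-DHL-8 was 1.11 ± 0.143 (adjusted p = 8.5e-05, ratio of means 3.70). In Farage the difference was 0.38 ± 0.143 (ratio of means 1.71) and was not called, with an adjusted p of 0.0525. It was called under 6 alternatives. Without the third treated Farage library it was 0.52 (adjusted p = 0.0104) and with the protein-coding sum 0.42 (adjusted p = 0.0357). With TPM scaling, which also gives the added 1 less weight, it was 0.56 (adjusted p = 0.0391). The value stayed at 0.38 with a plain prior (adjusted p = 0.0413), with a replicate block (adjusted p = 0.0443) and without the third SU-DHL-8 control (adjusted p = 0.0477), which enters only through the shared estimate of spread. KLF2 was the 1 member whose response was called smaller in Farage, by -0.73 ± 0.202 (adjusted p = 0.0179).

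KLF7 (ENSG00000118263, chr2:207074137-207167267, minus strand), an activator first described as ubiquitous, separated the lines. It was listed at 0 in the 3 SU-DHL-8 controls and at 0.0238, 0.0357 and 0 FPKM in the treated SU-DHL-8 libraries. In Farage it was at 2.68, 2.59 and 1.91 FPKM in controls and at 2.79, 2.88 and 3.07 FPKM after morusinol. The treated Farage libraries lay just above the controls, but the difference of 0.21 ± 0.106 was not called (adjusted p = 0.137, 95% interval -0.02 to 0.45). KLF7-IT1, an RNA annotated within an intron of KLF7 on the same strand, was likewise at 0 in each SU-DHL-8 library and reached 1.57 FPKM in Farage. The sources used here do not say how reads were divided between the pair.

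KLF4 (ENSG00000136826, chr9:107484852-107490482, minus strand), a reprogramming factor, was nearly undetected. All 6 SU-DHL-8 libraries listed it at 0. The Farage controls held 0, 0 and 0.0494 FPKM and the treated Farage libraries 0.0108, 0.146 and 0.102 FPKM. By the estimate of depth described with the processing, the highest of these values rests on about 10 reads. Without the filter on low values the Farage difference was 0.09 ± 0.0385 (adjusted p = 0.134). The processed pseudogene KLF4P1 was at group means of 0.610 to 0.839 FPKM, above KLF4 itself, and the sources used here do not say how reads shared by the copies were assigned.

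KLF3 (ENSG00000109787, chr4:38664196-38701042, plus strand), the CtBP-dependent repressor of the set, changed in Farage. It was at 0.271, 0.359 and 0.275 FPKM in SU-DHL-8 controls and at 0.300, 0.256 and 0.434 FPKM after morusinol. Farage controls were at 0.214, 0.167 and 0.325 FPKM and treated Farage libraries at 1.45, 1.50 and 1.50 FPKM. The 3 treated Farage libraries stood alone, while the other 9 libraries overlapped. The Farage rise was 1.01 ± 0.105 (adjusted p = 2.3e-05, ratio of means 6.29). In SU-DHL-8 the difference was 0.03 ± 0.105 (adjusted p = 0.878, 95% interval -0.20 to 0.26), and the responses differed by 0.98 ± 0.148 (adjusted p = 0.00058). The pseudogene KLF3P1 had means of 1.73 FPKM in Farage controls and 0.762 FPKM in treated Farage libraries, in the opposite direction to KLF3. Its part in the KLF3 values was not tested.

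**Figure D2:**
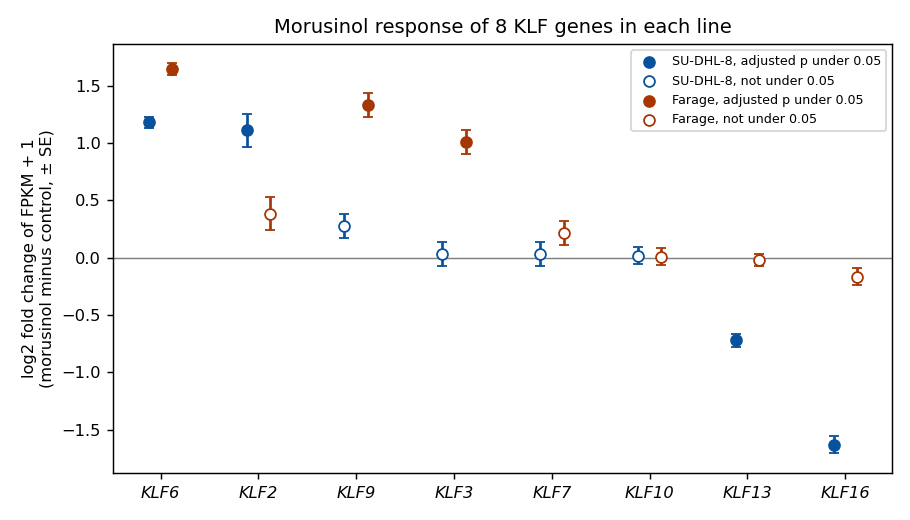
Fold change with morusinol of the 8 tested KLF genes as log2 difference of FPKM + 1 (points) ± SE (bars), in SU-DHL-8 (blue) and Farage (brown), with filled points for adjusted p under 0.05. KLF6 is filled in both lines at 1.18 and 1.64, and KLF16 lies at -1.63 in SU-DHL-8 and at -0.17 in Farage.

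Among the SIN3-recruiting repressors, KLF9 rose in Farage, KLF13 and KLF16 fell in SU-DHL-8, and KLF10 was called in neither line. KLF9 (ENSG00000119138, chr9:70384597-70414624, minus strand) is a known target of the glucocorticoid receptor. It was at 0.379, 0.372 and 0.631 FPKM in SU-DHL-8 controls and at 0.993, 0.492 and 0.835 FPKM after morusinol. In Farage it was at 4.11, 3.92 and 3.99 FPKM in controls and at 11.7, 11.2 and 11.8 FPKM after morusinol. The Farage groups were far apart, and in SU-DHL-8 the second treated library lay among the controls. The Farage rise was 1.33 ± 0.107 (adjusted p = 3.7e-06, ratio of means 2.89). In SU-DHL-8 the difference was 0.27 ± 0.107 (ratio of means 1.68) and was not called (adjusted p = 0.0583). It was called under 5 alternatives: a pseudocount of 0.1 (0.62, adjusted p = 0.0454), a minimum of 5 FPKM (0.27, adjusted p = 0.0324), scaling to the same protein-coding sum (0.30, adjusted p = 0.0437), and without the second treated library (0.39, adjusted p = 0.0049) or the third control (0.36, adjusted p = 0.025). The responses differed by 1.05 ± 0.151 (adjusted p = 0.00042). This difference was not called with a pseudocount of 0.1 in place of 1 (0.88, adjusted p = 0.0621).

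KLF16 (ENSG00000129911, chr19:1852399-1863568, minus strand), a GC-box repressor, had the largest fall of the set. It was at 13.2, 14.2 and 13.1 FPKM in SU-DHL-8 controls and at 3.59, 3.81 and 3.62 FPKM after morusinol. The Farage values were 7.24, 5.62 and 6.48 FPKM in controls and 5.27, 5.90 and 5.63 FPKM after morusinol. The SU-DHL-8 groups were widely separated and the Farage groups overlapped. KLF16 fell by 1.63 ± 0.0741 in SU-DHL-8 (adjusted p = 3.8e-08, ratio of means 0.272), which put it at place 17483 of 17574. The Farage difference of -0.17 ± 0.0741 was not called (adjusted p = 0.0945), but was without the second Farage control, at -0.25 (adjusted p = 0.0114). The responses differed by 1.46 ± 0.105 (adjusted p = 3.9e-06). An antisense gene, AC012615.4, overlaps KLF16 over 1770 bases and reached 2.34 FPKM. The sources used here do not give the strand of counting, so reads of the pair cannot be told apart.

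KLF13 (ENSG00000169926, chr15:31326855-31435665, plus strand), known in T cells for driving the chemokine CCL5 late in activation, also fell in SU-DHL-8. It was at 13.2, 12.3 and 13.5 FPKM in SU-DHL-8 controls and at 7.50, 7.13 and 7.86 FPKM after morusinol. Farage held 45.0, 41.1 and 40.2 FPKM in controls and 42.4, 41.9 and 40.0 FPKM after morusinol. The SU-DHL-8 groups did not overlap and the Farage groups did. KLF13 fell by 0.72 ± 0.0545 in SU-DHL-8 (adjusted p = 1.6e-06, ratio of means 0.576). In Farage the difference was -0.02 ± 0.0545 (adjusted p = 0.800, 95% interval -0.14 to 0.10), and the responses differed by 0.70 ± 0.0771 (adjusted p = 7.2e-05).

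KLF10 (ENSG00000155090, chr8:102648779-102655902, minus strand) is an early response gene of TGF-beta. It was at 4.64, 5.80 and 5.46 FPKM in SU-DHL-8 controls and at 5.88, 4.80 and 5.45 FPKM after morusinol. In Farage it was at 26.4, 28.1 and 26.7 FPKM in controls and at 27.0, 26.8 and 27.8 FPKM after morusinol. Treated and control libraries overlapped in both lines. The difference was 0.02 ± 0.0755 in SU-DHL-8 (adjusted p = 0.902, 95% interval -0.15 to 0.19) and 0.01 ± 0.0755 in Farage (adjusted p = 0.960, 95% interval -0.16 to 0.17). KLF11 (ENSG00000172059, chr2:10042849-10054836, plus strand), its closest relative and also a TGF-beta response gene, was listed at 0 in every library except the second and the third treated Farage ones, at 0.0232 and 0.0305 FPKM, or about 2 and 3 reads by the estimate of depth.

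The lines differed in KLF levels without morusinol. In controls, KLF10, KLF9, KLF7, KLF13 and KLF6 were higher in Farage by 2.16 ± 0.0755, 1.78 ± 0.107, 1.76 ± 0.106, 1.62 ± 0.0545 and 1.52 ± 0.0503, with adjusted p from 7.8e-10 to 9.4e-08. The order of these genes differs by ratio of means, which was 8.70 for KLF9, 5.11 for KLF10, 3.24 for KLF13 and 3.16 for KLF6, while KLF7 was listed at 0 in the SU-DHL-8 controls. KLF16 was lower in Farage by -0.97 ± 0.0741 (adjusted p = 7.2e-07). Thus 6 of 8 tested KLF genes were called between the control groups, beside 64.1% of all genes tested, 5 of them higher in Farage (34.5%) and 1 lower (29.6%), and library values were apart for 6 (69.5%). KLF2 and KLF3 did not pass the test, with differences of 0.06 ± 0.143 and -0.08 ± 0.105 and 95% intervals of -0.26 to 0.37 and -0.31 to 0.16. Between the treated groups 8 of 8 were called, beside 65.1% of all genes tested, 7 of them higher in Farage (33.0%) and 1 lower (32.1%). Library values were apart for all 8 (67.2%). KLF16 was then higher in Farage by 0.50 ± 0.0741 (adjusted p = 0.00013) and KLF2 lower by -0.67 ± 0.143 (adjusted p = 0.0017, ratio of means 0.498), so KLF16 changed its order between the lines. KLF4 did not enter this fit. Its treated groups were also apart, but the lowest treated Farage library held 0.0108 FPKM, about 1 read, against 0 in treated SU-DHL-8. Without the filter on low values KLF4 was also called between the treated groups (0.12, adjusted p = 0.0385). KLF3, KLF7 and KLF9 passed the filter only through Farage libraries, which favours higher Farage values, so the counts in both comparisons are descriptions.

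Ordered from the lowest group mean to the highest, KLF6 was the only member with 4 groups whose library ranges were all apart, in the order control then treated SU-DHL-8, then control and treated Farage. KLF7 and KLF9 had the same order, but their SU-DHL-8 groups overlapped. KLF10 fell into a low pair and a high pair by line. KLF13 ran from SU-DHL-8 morusinol through SU-DHL-8 control to overlapping Farage groups, and KLF16 from SU-DHL-8 morusinol through overlapping Farage groups to SU-DHL-8 control.

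Summed per length over the 10 genes, KLF transcript levels were 39.7 ± 0.939 FPKM in SU-DHL-8 controls, 36.1 ± 1.99 FPKM in treated SU-DHL-8, 103 ± 4.15 FPKM in Farage controls and 157 ± 1.09 FPKM in treated Farage. The makeup of the sum moved more than its size in SU-DHL-8. There KLF16 and KLF13 made up 32.1% to 35.9% and 31.1% to 33.9% of the sum in controls, and KLF6 15.1% to 16.5%. After morusinol KLF6 made up 42.6% to 44.2%, KLF13 20.4% to 21.0% and KLF16 9.58% to 11.3%. In Farage controls KLF13 led with 40.3% to 41.8%, and after morusinol KLF6 led with 40.7% to 42.0%. In both lines KLF6 was the member with the largest share after treatment. In bulk RNA, fewer cells of a kind and less RNA per cell cannot be told apart.

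**Figure D3:**
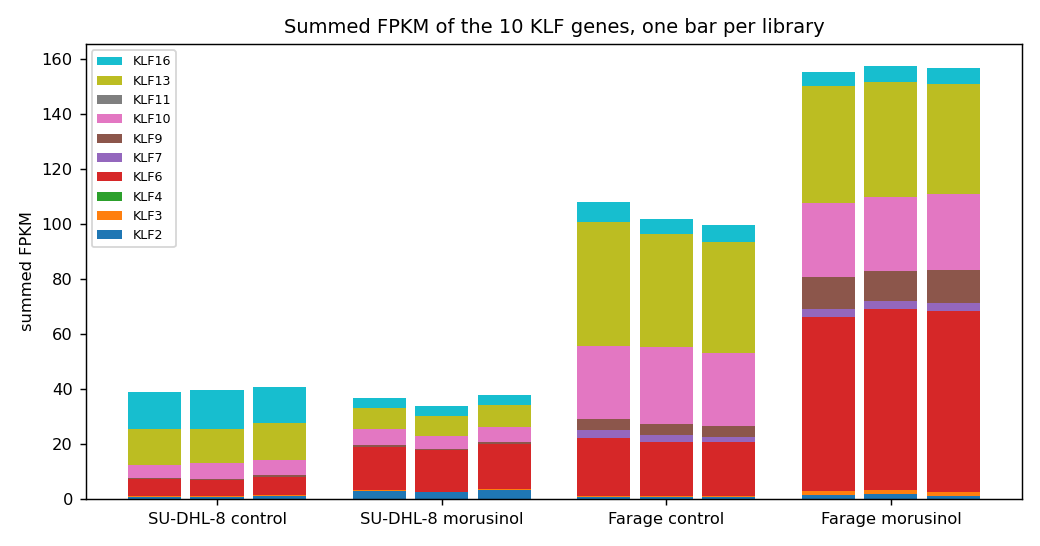
Summed FPKM of the 10 KLF genes, 1 stacked bar per library, coloured by gene. SU-DHL-8 libraries sum to 33.9 to 40.7 FPKM, Farage controls to 99.8 to 108 FPKM and treated Farage libraries to 155 to 158 FPKM, and KLF6 takes the largest share in treated libraries of both lines.

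Genes around the KLF family were read from 7 lists. All genes tested had a median log2 difference of 0.02 in SU-DHL-8 and -0.03 in Farage, with 25.1% called higher and 21.6% lower in SU-DHL-8 and 21.9% and 21.2% in Farage. Of the 17 other KLF and SP genes, which share the zinc finger type, 6 were tested. In SU-DHL-8 3 rose and 2 fell (median 0.00), and in Farage 4 rose and none fell (median 0.36). KLF5, an activator of epithelial and proliferating cells, was at 3.10, 3.09 and 2.52 FPKM in Farage controls and at 7.57, 8.55 and 8.67 FPKM after morusinol, a rise of 1.25 (adjusted p = 3.7e-06). In SU-DHL-8 KLF5 was at means of 1.43 and 1.17 FPKM and was not called (-0.16, adjusted p = 0.242), and the responses differed by 1.41 (adjusted p = 4.0e-05). KLF12, a repressor of the KLF3 type, rose by 0.38 in SU-DHL-8 (adjusted p = 0.00039) and 0.63 in Farage (adjusted p = 1.3e-05). The calls of SP1 and SP2 in SU-DHL-8 were weak (0.16 and 0.25, adjusted p = 0.0257 and 0.0490) and were lost under 8 and 17 alternatives, so the count of calls in this list was 3 under several of them.

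Of 14 tested cofactors of KLF proteins, 7 fell and 1 rose in SU-DHL-8 (median -0.20), and 6 fell and 4 rose in Farage (median -0.05). HDAC1, the deacetylase of the SIN3 complex, went from 68.5 ± 0.716 to 28.6 ± 1.29 FPKM in SU-DHL-8 (-1.23, adjusted p = 4.3e-08) and from 108 ± 6.74 to 55.8 ± 3.51 FPKM in Farage (-0.94, adjusted p = 5.3e-07). RBBP4, a histone-binding subunit, fell by 0.34 in SU-DHL-8 (adjusted p = 7.7e-05) and by 0.47 in Farage (adjusted p = 8.6e-06). Other cofactors had higher means after morusinol. The acetyltransferase CREBBP went from 7.45 to 10.6 FPKM in SU-DHL-8 and from 9.26 to 14.3 FPKM in Farage. In Farage EP300 went from 14.4 to 18.1 FPKM and SIN3A from 10.95 to 14.2 FPKM.

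The ERK5 and MEF2 pathway, which controls KLF2 in other cells, had 4 genes higher and 2 lower of 8 in SU-DHL-8 (median 0.15) and 4 higher and 1 lower in Farage (median 0.24). MAP2K5, the kinase that activates ERK5, rose by 0.72 in SU-DHL-8 (adjusted p = 4.1e-05) and 0.53 in Farage (adjusted p = 0.00047). It was low in Farage, and by ratio of means its rise was larger there (2.12) than in SU-DHL-8 (1.79). MEF2A rose by 0.71 in SU-DHL-8 (adjusted p = 7.8e-06) and 0.39 in Farage (adjusted p = 0.00069). Other members had lower means after morusinol in SU-DHL-8, where KLF2 rose. There MEF2D went from 61.9 to 49.4 FPKM, MEF2C from 4.19 to 3.08 FPKM and MAPK7, the gene of ERK5, from 2.99 to 2.57 FPKM. In Farage MEF2D went from 19.3 to 22.0 FPKM and MAPK7 from 1.09 to 1.66 FPKM.

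Homing genes known as KLF2 targets did not move in 1 direction. Of 4 tested, 1 rose and 1 fell in SU-DHL-8 (median -0.11), and 2 rose and 1 fell in Farage (median 0.14). CCR7, the receptor that guides cells into lymph nodes, was at 10.1, 10.3 and 10.6 FPKM in SU-DHL-8 controls and at 15.1, 11.4 and 14.7 FPKM after morusinol. In Farage it was at 22.1, 20.5 and 22.2 FPKM in controls and at 118, 109 and 106 FPKM after morusinol. The groups did not overlap in either line, and the Farage rise of 2.31 (adjusted p = 2.1e-08) exceeded the SU-DHL-8 rise of 0.37 (adjusted p = 0.0064) by 1.94 (adjusted p = 2.2e-06). The SU-DHL-8 call of CCR7 was lost with TPM scaling (0.28, adjusted p = 0.059). ITGB7, an integrin chain, fell in Farage from 20.4 to 8.83 FPKM (-1.12, adjusted p = 5.6e-07) and was at or near 0 in SU-DHL-8. Its partner ITGA4 fell in SU-DHL-8 (-0.75, adjusted p = 1.4e-06) and rose in Farage (0.23, adjusted p = 0.0068). S1PR1, the egress receptor regulated by KLF2, was too low for the test. In Farage it was at 0.550, 0.659 and 0.687 FPKM in controls and at 0.923, 1.02 and 0.742 FPKM after morusinol, without overlap, and its SU-DHL-8 means were 0.0633 and 0.0995 FPKM.

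Of the 13 TGF-beta and SMAD genes, the setting in which KLF10 and KLF11 were first described, 6 rose and 4 fell in SU-DHL-8 (median 0.13), and 7 rose and 1 fell in Farage (median 0.29). TGIF1, a SMAD co-repressor, rose by 1.29 (adjusted p = 2.6e-07) in SU-DHL-8 and 1.09 (adjusted p = 1.4e-06) in Farage. SMAD7, the inhibitory SMAD, rose by 1.05 in SU-DHL-8 (adjusted p = 1.1e-05, ratio of means 3.93), where its control mean was 0.566 FPKM, and by 0.88 in Farage (adjusted p = 5.4e-05, ratio of means 1.92), where it was 10.9 FPKM. The SMAD7 responses differed by -0.17, which was not called (adjusted p = 0.413), but by -0.91 with a pseudocount of 0.1 (adjusted p = 0.0308). ID1, a target of SMAD signalling, was at 10.7, 11.0 and 10.6 FPKM in Farage controls and at 1.99, 1.65 and 1.63 FPKM after morusinol, and fell by 2.10 (adjusted p = 1.8e-07, ratio of means 0.163). In SU-DHL-8 it was low, at means of 0.257 and 0.535 FPKM, and its call there (0.30, adjusted p = 0.0461, ratio of means 2.08) was lost under 14 alternatives. Other members of the list went down in SU-DHL-8. Its relative ID3 went from a mean of 121 to 26.1 FPKM there (ratio of means 0.215), and TGFB1 from 23.5 to 6.42 FPKM (0.273). In Farage the ratios of means were 0.982 for ID3 and 0.981 for TGFB1.

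Glucocorticoid receptor genes, the setting in which KLF9 is induced, had 6 members higher and 1 lower of 7 in SU-DHL-8 (median 0.57) and 5 higher and 1 lower in Farage (median 0.67). TSC22D3 (GILZ) was at 0.344, 0.412 and 0.293 FPKM in SU-DHL-8 controls and at 5.05, 5.36 and 5.53 FPKM after morusinol, and rose by 2.23 (adjusted p = 1.7e-09, ratio of means 15.2). It rose by 2.79 in Farage (adjusted p = 5.8e-10, ratio of means 9.20), from a mean of 2.59 to 23.8 FPKM. Which line had the larger TSC22D3 rise depended on the pseudocount (0.56 larger in Farage with 1, -0.44 with 0.1), and the difference was not called with TPM scaling (0.20, adjusted p = 0.199). FKBP5, another receptor target, went the other way, by -1.18 in SU-DHL-8 (adjusted p = 1.3e-08) and -0.63 in Farage (adjusted p = 1.7e-06).

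Genes of quiescence and growth restraint had 9 members higher and 5 lower of 14 in SU-DHL-8 (median 0.32) and 9 higher and 1 lower in Farage (median 0.55). BTG1, an antiproliferative factor, went from 17.5 ± 1.52 to 59.5 ± 2.42 FPKM in SU-DHL-8 and from 45.1 ± 1.97 to 127 ± 3.50 FPKM in Farage, rises of 1.71 and 1.48. CDKN1B, the cyclin-dependent kinase inhibitor p27, went from 13.0 ± 0.537 to 22.6 ± 0.345 FPKM in SU-DHL-8 and from 3.95 ± 0.188 to 11.4 ± 0.228 FPKM in Farage, rises of 0.75 and 1.33. The 4 adjusted p-values ran from 5.1e-09 to 1.5e-07. Other members had lower means after morusinol. In SU-DHL-8 CDKN2C went from 33.1 to 14.3 FPKM, TOB2 from 15.1 to 7.85 FPKM and CDKN1A, the inhibitor p21, from 6.74 to 4.04 FPKM. In Farage BTG2 went from 78.1 to 54.0 FPKM, while in SU-DHL-8 it went from 27.3 to 44.3 FPKM.

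**Figure D4:**
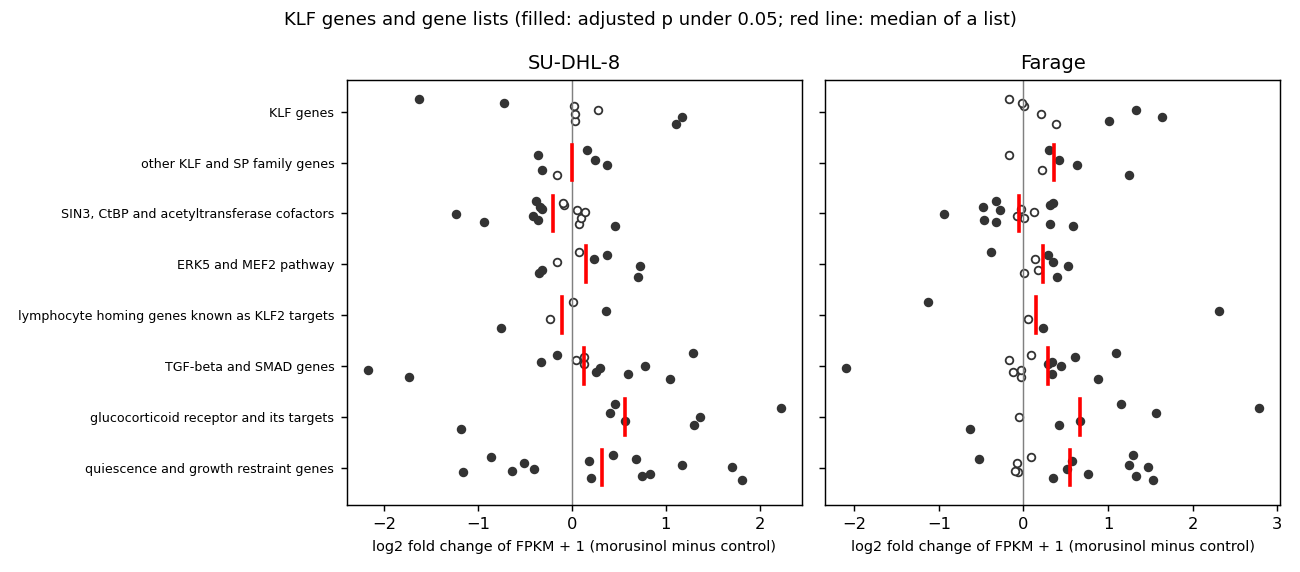
Log2 difference of FPKM + 1 (morusinol minus control) for the 8 tested KLF genes and the tested members of 7 lists, in SU-DHL-8 (left) and Farage (right). Each point is a gene, filled for adjusted p under 0.05, and a red line marks the median of a list. The glucocorticoid and quiescence lists have medians of 0.57 and 0.32 in SU-DHL-8 and 0.67 and 0.55 in Farage.

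The protein-coding genes most like each KLF gene were sought among 6564 genes of mean FPKM of at least 5, by Pearson r of log2(FPKM + 1) over the 12 libraries. The nearest were PIM1 for KLF6 (r = 0.998), PBXIP1 for KLF2 (0.967), RHBDD2 for KLF3 (0.983), ARHGAP42 for KLF7 (0.998), WSB1 for KLF9 (0.998), GPR137B for KLF10 (0.998), P2RY8 for KLF13 (0.998) and LAT2 for KLF16 (0.993). With the mean of each line subtracted the nearest were JMY (0.997), H1-10 (0.986), RHBDD2 (0.989), HIBADH (0.916), RNF187 (0.989), CEPT1 (0.773), ACTN4 (0.991) and LAT2 (0.993), in the same order of KLF genes. These values share their libraries and describe likeness only.

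Library facts touch all of these values. The steps of the FPKM values put the depth at 12.1 to 37.9 M reads per library, with the second treated SU-DHL-8 library the lowest, and log2 values of libraries of 1 group correlated across genes with r of 0.964 to 0.980. All 6 B cell markers were present in every group, and their summed FPKM was 354 to 368 in SU-DHL-8 controls, 230 to 238 after morusinol, 966 to 1021 in Farage controls and 613 to 660 after morusinol. The 6 did not move alike. In SU-DHL-8 the mean of CD79A went from 175 to 43.0 FPKM, while CD79B went from 71.7 to 91.6 and PAX5 from 39.8 to 45.1 FPKM. In Farage MS4A1 went from 356 to 92.9 FPKM, while CD79A was at 391 and 376 FPKM. Of 7 T and NK cell markers 1 reached a mean of 1 FPKM in each group (NKG7 in SU-DHL-8, PRF1 in Farage). The summed FPKM of these markers was 0.907 to 2.31 in SU-DHL-8 and 3.77 to 6.07 in Farage, and CD3G was listed at 0 in Farage controls. Myeloid markers summed to at most 1.80 FPKM and endothelial and fibroblast markers to at most 2.38 FPKM. The part of any of these in the KLF results was not tested.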

How the data were processed

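RNA sequencing of 12 libraries in 4 groups gave 1 table, in which the authors deposited FPKM values for 61466 genes. Per the labels, a SMARTer kit turned total RNA into libraries. Per the submitters' processing notes the builds are mouse (GRCm38, mm10), yet the identifiers are human, and 58297 match GENCODE 29, used here for GRCh38 positions. The sources used here give no aligner, counter or strand. The 6 morusinol columns were matched to the labels by name. The other 6 columns carry the letter n after the line and were taken as controls because the labels leave each line no other group; no column is named control.

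Values were tested as log2(FPKM + 1) with limma 3.58.1 in R 4.3.3: genes with at least 1 FPKM in at least 3 libraries, 1 mean per group, trended and robust empirical Bayes, two-sided, Benjamini-Hochberg over 17574 genes. The script was tested on simulated data. An exact permutation test of 3 against 3 cannot go below 0.10. Tables and plots were handled with matplotlib 3.10.9, pandas 2.3.3 and numpy 2.4.6 in Python 3.11.15. The KLF genes and gene lists were chosen with earlier results of these data known. Named genes are the 10 KLF genes, up to 4 members a list by p rank over both lines (S1PR1, SP2 and SP4 were also named), and the nearest genes by correlation. Some list members that went the other way and some B cell markers were named as well. Of the homing list, 1 gene is not reported here and is left out of its counts. Depth was estimated from value steps: 65.2% to 76.5% of values under 50 steps were whole within 0.02, and a step may be 1 read or less than a fragment, so no counting intervals are given. RefSeq promoters were used for 8 of 10 members, in 12 windows. None was used for KLF3, and windows on chromosome 8, where KLF10 lies, were left out. Alternatives were another pseudocount, filters, scalings (TPM, protein-coding sum, TMM), separate fits, a plain prior, a replicate block and leaving out each library. FPKM values summed to 346099 to 429757 per library, and TPM scaling kept the added 1, so it also gave that 1 less weight.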

Additional observations from a re-analysis of the deposited data

Results flagged for a closer look

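The response to morusinol differed between the lines, by a test of the difference itself (Farage minus SU-DHL-8, log2 scale, limma with Benjamini-Hochberg adjustment), for 6 KLF genes. The differences were -0.73 for KLF2, 0.98 for KLF3, 0.46 for KLF6, 1.05 for KLF9, 0.70 for KLF13 and 1.46 for KLF16. KLF6 rose in both lines. As reported, KLF3 and KLF9 were called in Farage and not in SU-DHL-8, and KLF2, KLF13 and KLF16 in SU-DHL-8 and not in Farage. Some alternatives also called KLF9 in SU-DHL-8 (5 of them) and KLF2 (6) and KLF16 (1) in Farage. Among other family genes the same test passed for KLF12 (0.25), KLF5 (1.41) and SP4 (0.55). The KLF12 call was lost under 13 alternatives.

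Of 60 tested genes of the other lists, 38 passed, beside 34.9% of all genes tested. The lists were chosen with earlier results of these data known, so this count is a description. The others that passed are left out. The 9 given here were picked by p rank in their lists over the treatment tests within each line, not by the size of this difference. They are therefore not the largest differences. For ID3, which is not among them, the ratios of means were 0.215 in SU-DHL-8 and 0.982 in Farage. The 9 are HDAC1 (0.30) and MEF2A (-0.31), the homing genes CCR7 (1.94), ITGA4 (0.99) and ITGB7 (-1.13), and ID1 (-2.40), TSC22D3 (0.56), FKBP5 (0.55) and CDKN1B (0.58). The MEF2A call was lost under 10 alternatives and that of HDAC1 under 1. TSC22D3 changed sign with a pseudocount of 0.1 and lost its call with TPM scaling (0.20, adjusted p = 0.199). Groups of 3 libraries are too small for a test of single outlying libraries.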

How the results depend on the processing

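For the KLF genes, 40 results were recomputed under 801 alternatives in all; 771 kept direction and side of the threshold. No called KLF result changed direction under any of them, and 1 lost its call (KLF9, difference of the responses, pseudocount 0.1). Under 12 an uncalled result became called (KLF2 in Farage 6, KLF9 in SU-DHL-8 5, KLF16 in Farage 1). The 17 changes of direction were all in uncalled KLF results near 0, and the cause was not tested. KLF10 gave -0.0786 (TPM) and -0.0257 (TMM) in SU-DHL-8 and 0.0991 and 0.0287 for the difference of the responses, and KLF13 gave 0.0467 in Farage with the protein-coding sum. Leaving out 1 library gave ranges of -0.0237 to 0.153 (KLF2, controls), -0.0260 to 0.0696 (KLF3, SU-DHL-8), -0.0594 to 0.0847 (KLF10, SU-DHL-8), -0.00959 to 0.0329 (KLF10, Farage), -0.0782 to 0.0660 (KLF10, difference) and -0.0531 to 0.0274 (KLF13, Farage). Of list genes, the difference of the responses became 0.151 (pseudocount 0.1) and 0.107 (TPM) for MAP2K5 and -0.44 (pseudocount 0.1) for TSC22D3. TGIF1 became 0.00844 between treated groups (TPM), and between controls it ran from -0.00820 to 0.0743 without 1 library. SP1 between controls became 0.0567 (TPM), 0.0238 (protein-coding sum) and 0.00499 (replicate block), and ran from -0.0859 to 0.00072 without 1 library. ITGB7 in SU-DHL-8 ran from -0.0124 to 0.0363.

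Requiring 5 FPKM, which tests 8908 genes, left 5 KLF genes called of 5 tested between treated groups, with 7033 genes called, and 7043 between controls. Without 1 library, calls of KLF genes numbered 4 to 5 (SU-DHL-8), 3 to 4 (Farage), 6 to 6 (difference), 6 to 6 (controls) and 8 to 8 (treated groups). TPM scaling moved the share of higher calls from 49.6% to 62.5% for the difference of the responses and from 50.7% to 61.8% between treated groups, and the median of all genes there from 0.01 to 0.20 and between controls from 0.08 to 0.19.

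Deviations of same-numbered libraries from their group means showed no shared variation (r -0.0788 to 0.0331). With 3 libraries a group, this cannot tell whether a number marks a shared culture or day. With a replicate block within each line, 7619 genes passed in SU-DHL-8 and 6853 in Farage, 5110 for the difference, 9061 between controls and 9352 between treated groups. The block added a call for KLF2 in Farage (0.38, adjusted p = 0.0443).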
